A study of Mus musculus with 63 samples.

Results

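Macrophages (Macs) sorted from mouse kidneys after 7 days of unilateral ureteral obstruction (UUO-7) were compared with Macs sorted from the kidneys of sham-operated mice, over every microRNA (miRNA) locus of the deposited count table. The comparison holds 8 of the 63 libraries, 4 sham and 4 UUO-7, and was chosen by the cell type and treatment labels alone. It asks how the miRNA content of kidney Macs differs once obstruction is established. All animals were male C57BL/6 mice aged 8 to 12 weeks with no engineered allele. UUO is a tied ureter, which dams urine back into the kidney and leads to tubule injury, inflammation and scarring. The sham group had surgery with no obstruction. The other Mac libraries came from 2 days of obstruction (UUO-2, 4 libraries) and from kidneys whose ureter was reimplanted after 7 days and that were taken 14 days later (R-UUO, 4 libraries). The remaining libraries are endothelial cells (ECs), proximal tubule (PT) cells and PDGFR-β+ cells from the same kinds of kidney.

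Macs were defined in the sort as CD45+ cells with high F4/80, so each library is the small RNA of a sorted bulk population from 1 mouse. The 4 mice per group were picked from 5 as those closest to the group mean of the injury marker Havcr1, so the spread between mice may be narrower than in unselected animals. A sort on F4/80 takes resident and recruited cells together, and in bulk samples fewer cells of a type and less RNA per cell cannot be told apart. The sham libraries held 2105184 to 6095639 miRNA counts and the UUO-7 libraries 1798374 to 3076036. Levels are given as CPM, the usual library-scaled count unit, with the library totals adjusted by TMM factors. The limit of detection was set at 3 counts, about 0.508 CPM in the deepest and 1.64 CPM in the shallowest of these 8 libraries. Lower values are printed as counted. Of 2110 loci in the table, 457 had enough counts in the Mac libraries to be tested.

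The sorted cells carried leukocyte and macrophage miRNAs. MiR-142a-5p, made in nearly all blood cells, averaged 56678 ± 4014 CPM (mean ± SD, n = 4 libraries a group here and below) in sham Macs and 29767 ± 1049.6 CPM in UUO-7 Macs. MiR-223-3p, typical of myeloid cells, averaged 3253 ± 133 and 2170.4 ± 84.1 CPM. MiR-511-3p lies in an intron of Mrc1, the mannose receptor gene of tissue macrophages, and averaged 101 ± 8.05 and 169 ± 27.4 CPM. Markers of other cells were present too. The tubule miRNA miR-192-5p stood at 6015 and 2653 CPM and the endothelial miR-126a-5p at 2076 and 1169 CPM. The mural cell miR-143-3p stood at 5676 and 5969 CPM. Of the red blood cell miRNAs, miR-451a stayed at 0 to 1.83 CPM in the sham libraries. MiR-486a-5p averaged 600 CPM in sham and 925 CPM in UUO-7 Macs.

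MiRNAs are short RNAs that guide Argonaute proteins to partly matching sites in messenger RNAs, mostly in the 3′ untranslated region, and lower their stability and translation. A hairpin transcript is cut into a duplex whose arms, named 5p and 3p, can each become a mature miRNA, and usually 1 arm is kept. Pairing rests mainly on the seed, bases 2 to 8, so miRNAs with the same seed form a family with shared targets. In macrophages several miRNAs are part of the response to microbial and injury signals: miR-155, miR-146a, miR-146b, miR-147, miR-21 and the miR-132 and miR-212 pair are induced downstream of Toll-like receptors, NF-κB or CREB, and miR-146 acts back on the signalling adaptors IRAK1 and TRAF6.

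The results turn on a few families, whose mature sequences are shown first, 5′ to 3′, with the seed in capitals. They were taken from RefSeq annotation of GRCm38.p6. They are shown because the members of each family fell or rose together. The miR-132 pair shares a seed and so does the miR-29 family, and the seeds of miR-101a-3p and miR-101b-3p as printed are offset by 1 base.
miR-132-3p: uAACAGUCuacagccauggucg
miR-212-3p: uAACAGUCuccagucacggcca
miR-29a-3p: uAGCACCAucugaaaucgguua
miR-29b-3p: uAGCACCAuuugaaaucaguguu
miR-29c-3p: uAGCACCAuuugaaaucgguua
miR-101a-3p: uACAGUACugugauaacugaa
miR-101b-3p: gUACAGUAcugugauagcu
In GRCm38 coordinates miR-132-3p lies at chr11:75173723-75173744 and miR-212-3p at chr11:75173443-75173464, both on the plus strand in an intron of the non-coding transcript 1700016P03Rik. MiR-29a-3p lies at chr6:31062673-31062694 on the minus strand with no host gene on that strand, and miR-29c-3p at chr1:195037600-195037621 in an exon of the non-coding A330023F24Rik. MiR-101a-3p lies at chr4:101346957-101346977 in an exon of the long non-coding RNA E130102H24Rik, and miR-101b-3p at chr19:29135338-29135356 in an intron of Rcl1.

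The next pairs share a seed, and 1 member was higher and the other lower, or 1 moved and the other did not pass the test.
miR-146a-5p: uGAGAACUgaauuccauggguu
miR-146b-5p: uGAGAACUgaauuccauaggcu
miR-27a-3p: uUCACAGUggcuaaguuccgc
miR-27b-3p: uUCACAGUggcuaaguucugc
miR-32-5p: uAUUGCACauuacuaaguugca
miR-92a-3p: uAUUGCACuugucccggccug
miR-181a-5p: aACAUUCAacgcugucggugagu
miR-181b-5p: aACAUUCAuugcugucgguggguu
MiR-146a-5p lies at chr11:43374435-43374456 with no host gene on its strand, and miR-146b-5p at chr19:46342790-46342811 in an intron of Mfsd13a. MiR-27a-3p lies at chr8:84208727-84208747 and miR-27b-3p at chr13:63300760-63300780, the latter in an exon of 2010111I01Rik. MiR-32-5p lies at chr4:56895272-56895293 in an intron of Tmem245.

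The last pair comes from the opposite arms of 1 hairpin and has different seeds.
miR-125b-5p: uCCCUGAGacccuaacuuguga
miR-125b-1-3p: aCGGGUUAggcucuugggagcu
The hairpin is miR-125b-1, with its 5p arm at chr9:41581940-41581961 and its 3p arm at chr9:41581980-41582001, in an intron of the non-coding 3110039I08Rik.

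Obstruction for 7 days changed the level of 197 of the 457 loci, a background of 43.1% at a false discovery rate under 0.05 and a fold change above 1.5 (edgeR quasi-likelihood test with Benjamini-Hochberg adjustment over the 457 loci, fitted on the 16 Mac libraries). Of these 120 were higher in UUO-7 Macs (26.3%) and 77 were lower (16.8%). The log2 fold changes, given here and below with their standard error (SE) as ±, ran from -3.21 to 4.77, and the median over all loci tested was 0.22. At 216 loci all 4 UUO-7 values lay on 1 side of all 4 sham values (47.3%), among them 112 of the 120 higher and 66 of the 77 lower loci. Loci that rose were mostly of low or middle abundance. Only 17 of the 120 reached a mean of 1000 CPM in UUO-7 Macs, against 22 of the 77 that fell and that reached it in sham Macs. The loci that rose made up 8.23% of CPM in sham and 16.2% in UUO-7 Macs, and the loci that fell went from 30.7% to 16.4%. The scaling of the libraries set the zero of these changes. With factors set against a sham library the median shifted by -0.14 and the split became 107 higher and 94 lower. With library size alone it shifted by 0.13 and the split became 138 and 65. Leaving out 1 library gave 96 to 116 higher and 85 to 105 lower loci, and 120 and 77 lie outside these ranges. The log2 ratio of the mean TMM factor of UUO-7 to that of sham was 0.13 as used. With each of the 16 Mac libraries as the reference it ran from 0.08 to 0.38 (median 0.24). The size of the excess of higher loci thus depends on the reference library.

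**Figure D1:**
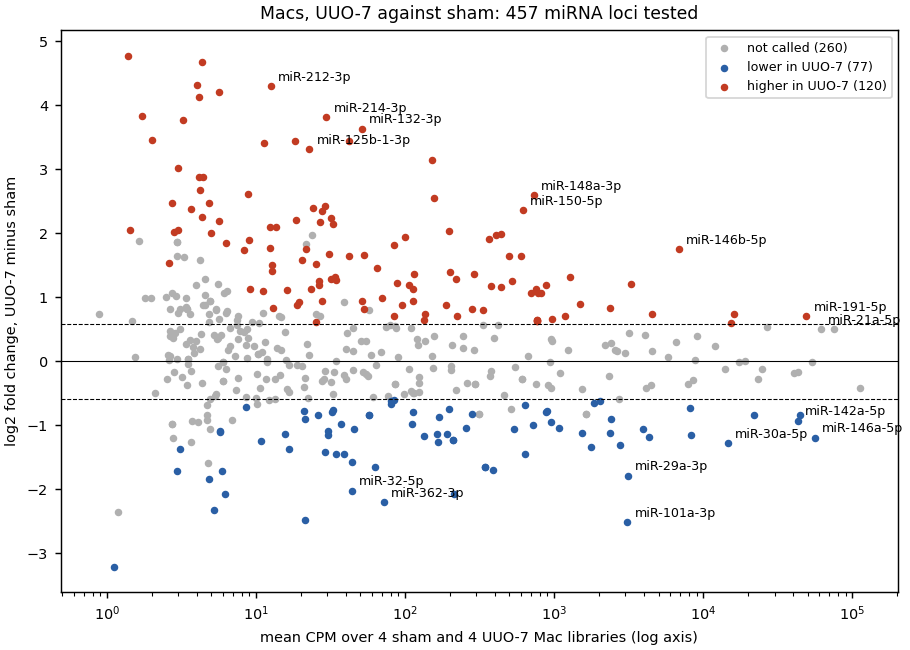
Each point is 1 of the 457 loci tested, with its mean level in Macs on the horizontal axis (CPM, log scale) and its log2 fold change between UUO-7 and sham on the vertical axis. Loci called higher (120) and lower (77) are coloured, and the higher calls lie mostly at low and middle levels.

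MiRNAs of the inflammatory list rose more often than they fell. The list was chosen with earlier results of these data known, so its count is not independent support for a theme. Of the 21 loci of this list that were tested, 13 were higher, 1 was lower and 7 did not pass, both arms of some hairpins counted. Over all loci tested 26.3% were higher and 16.8% lower. The median log2 fold change of the list was 1.00 beside 0.22 for all loci. MiR-132-3p, which CREB induces, stood at 2.56, 4.22, 9.13 and 13.2 CPM in the sham libraries and at 71.8, 82.0, 109 and 118 CPM in the UUO-7 libraries. Every UUO-7 library was above every sham library, and the level was 12.4-fold higher (log2 fold change 3.63 ± 0.34, adjusted p = 2.78e-07). Its neighbour miR-212-3p, cut from the same primary transcript, rose from 0, 0.937, 1.18 and 2.33 CPM to 12.6, 23.2, 25.1 and 35.2 CPM (log2 fold change 4.30 ± 0.48, adjusted p = 1.76e-06). The sham values lie near the limit of detection, so the size of this change is uncertain while its direction is the same in every library.

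MiR-146b-5p was at 2371, 3215, 3327 and 3611 CPM in sham and 9812, 9819, 10715 and 11897 CPM in UUO-7 Macs. The groups were far apart, with a log2 fold change of 1.75 ± 0.15, adjusted p = 6.78e-08. MiR-222-3p, which with miR-221 limits the cell cycle inhibitor p27 and the receptor Kit, rose from 1504, 1564, 1758 and 1934 CPM to 2714, 2802, 2887 and 3636 CPM (log2 fold change 0.83 ± 0.15, adjusted p = 0.000185), and miR-221-3p rose beside it (log2 fold change 1.07, adjusted p = 6.56e-06). MiR-147-3p, a Toll-like receptor induced miRNA, rose from 3.11, 5.24, 6.09 and 6.21 CPM to 21.4, 21.5, 21.7 and 23.1 CPM (log2 fold change 2.10 ± 0.29, adjusted p = 1.24e-05). MiR-155-5p, the product of the inflammatory non-coding transcript Bic and named here after its values were seen, rose from a mean of 128 ± 45.3 to 312 ± 94.5 CPM (log2 fold change 1.29 ± 0.29, adjusted p = 0.00133). MiR-21a-5p, the miRNA most often linked to kidney scarring, was among the most abundant at 44766, 49998, 54599 and 54696 CPM in sham and 67299, 70532, 73264 and 77414 CPM in UUO-7 Macs. Its log2 fold change of 0.50 ± 0.18, adjusted p = 0.0287 passed the false discovery rate but lay under the fold threshold. MiR-146a-5p was the single member that fell, and miR-187-3p and the 3 loci of miR-9-5p did not pass, with log2 fold changes of -0.08 to 0.81.

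**Figure D2:**
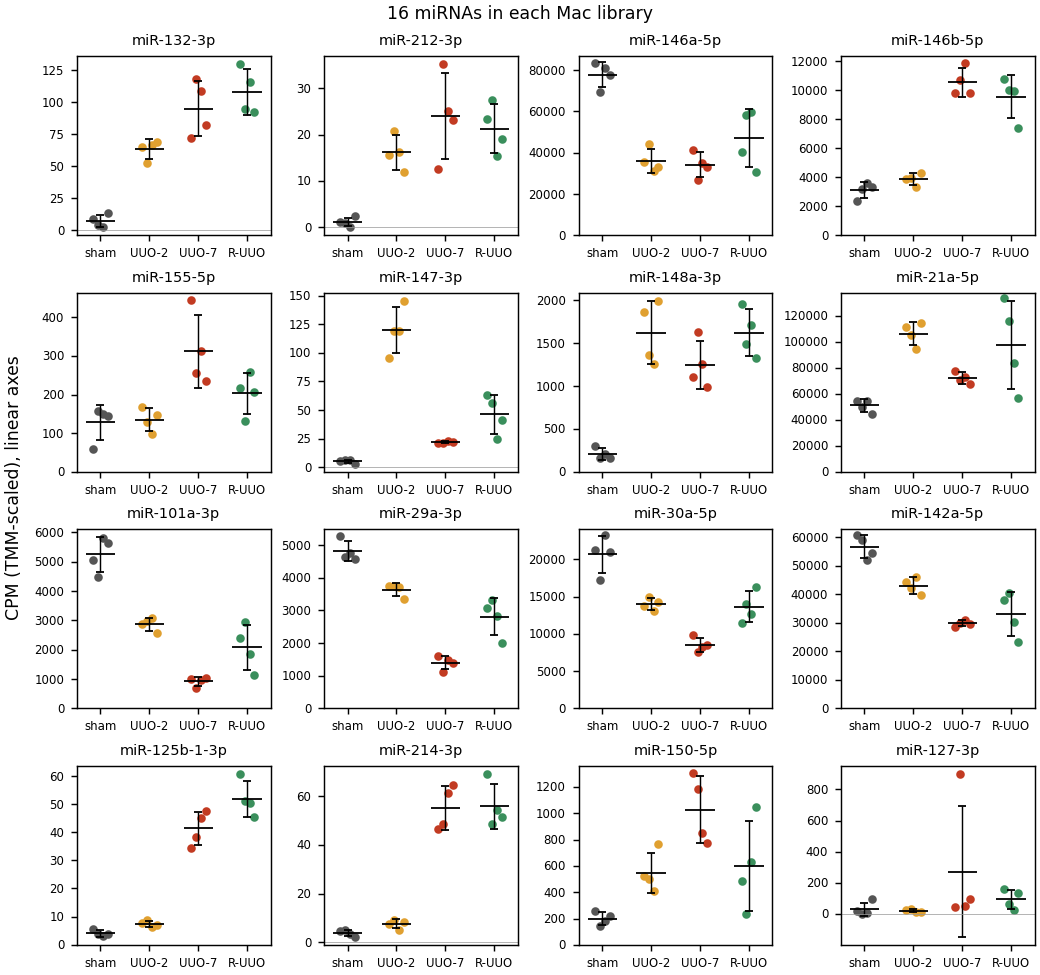
TMM-scaled CPM, on linear axes, of 16 miRNAs in each of the 16 Mac libraries, with the 4 conditions side by side in each panel (sham, then 2 and 7 days of obstruction, then R-UUO), 1 point per library and a line at each group mean. For miR-132-3p all UUO-7 points lie above all sham points, and for miR-101a-3p and miR-29a-3p all lie below them.

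Among the other loci that rose, miR-148a-3p, which targets the DNA methyltransferase Dnmt1, went from 157, 161, 204 and 304 CPM to 991, 1108, 1253 and 1636 CPM, a log2 fold change of 2.59 ± 0.23, adjusted p = 1.87e-07. The related miR-148b-3p did not pass (log2 fold change 0.17), and neither did miR-152-3p (log2 fold change -0.51). MiR-150-5p, abundant in mature lymphocytes and in monocytes, went from 145, 180.1, 217 and 256 CPM to 774, 846, 1186 and 1303 CPM (log2 fold change 2.36 ± 0.35, adjusted p = 2.81e-05). The groups did not overlap, but the other lymphocyte miRNA measured, miR-342-3p, did not pass (log2 fold change 0.29). MiR-182-5p and miR-183-5p are made from 1 cluster. MiR-182-5p rose from 102, 139, 224 and 241 CPM to 589, 622, 732 and 875 CPM (log2 fold change 2.00 ± 0.31, adjusted p = 4.6e-05), and miR-183-5p from a mean of 9.11 to 49.1 CPM, while miR-96-5p of the same cluster did not pass. On the log2 scale miR-182-5p and miR-183-5p changed by 4.32 and 4.64 in PT cells and by 2.23 and 2.80 in ECs. In PDGFR-β+ cells they changed by 1.27 and 1.43, and neither had a called difference between Macs and the mean of these cells.

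MiR-191-5p was among the most abundant loci to rise, from 35029, 35624, 35719 and 42584 CPM to 50068, 56601, 67457 and 68515 CPM (log2 fold change 0.70 ± 0.11, adjusted p = 5.15e-05). MiR-425-3p of the same cluster fell (log2 fold change -1.06, adjusted p = 0.00343). MiR-378a-3p, from an intron of the metabolic coactivator gene Ppargc1b, rose from 3211, 3281, 3354 and 3765 CPM to 4966, 5596, 5907 and 6309 CPM (log2 fold change 0.74 ± 0.11, adjusted p = 2.18e-05). MiR-27b-3p rose from a mean of 11973 ± 2238 to 19883 ± 2437 CPM and let-7i-5p from 12260.0 ± 1164 to 18482 ± 780.4 CPM. These abundant miRNAs rose by less than 2-fold, from 1.51-fold for let-7i-5p to 1.67-fold for miR-378a-3p, and the call was lost under 16 of 21 other settings for let-7i-5p, 13 of 21 for miR-191-5p, 7 of 21 for miR-27b-3p and 7 of 20 for miR-378a-3p. The Hox cluster miRNAs miR-196a-5p and miR-196b-5p rose (log2 fold changes 1.39 and 1.12), and the far more abundant miR-10a-5p of the Hox clusters had a log2 fold change of 0.51, under the fold threshold.

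Some of the steepest increases started from a few CPM. MiR-1247-5p rose from 0.365, 1.01, 2.59 and 4.22 CPM to 13.7, 16.6, 24.1 and 27.5 CPM (log2 fold change 3.42 ± 0.46, adjusted p = 1.24e-05), and miR-298-5p from 0, 1.18, 2.07 and 10.8 CPM to 22.6, 35.6, 35.8 and 37.5 CPM (log2 fold change 3.44 ± 0.59, adjusted p = 0.000115). All 5 tested loci of the Sfmbt2 intron cluster, a large rodent array of near-identical hairpins, were called higher, out of 139 loci in the table. For miR-467c-5p the sham libraries held 0, 0, 0.519 and 0.937 CPM and the UUO-7 libraries 6.25, 7.13, 7.73 and 12.3 CPM, and for miR-669a-5p 0, 0.259, 0.677 and 1.096 and 5.89, 10.6, 11.5 and 14.7 CPM. The sham values are at or under the limit of detection, reads may be shared between copies, and loci that low in both groups could not enter the test, so no fold and no count of the cluster as a whole is drawn from them. MiR-210-5p, the passenger arm of the hypoxia-induced miR-210, rose (log2 fold change 2.18, adjusted p = 0.000454), while the guide arm miR-210-3p had a log2 fold change of 0.44 and did not pass. MiR-6240 rose from a mean of 289 ± 47.4 to 902 ± 324 CPM, miR-6238 from 6.53 to 18.9 CPM and miR-6944-3p from 2.31 to 15.2 CPM.

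The miR-101 and miR-29 families were among those that fell. MiR-101a-3p, which targets the histone methyltransferase Ezh2, stood at 4484, 5075, 5642 and 5805 CPM in sham and 680.1, 983, 986 and 1021 CPM in UUO-7 Macs, a log2 fold change of -2.52 ± 0.22, adjusted p = 1.71e-07, or 5.72-fold lower. MiR-101b-3p fell as well, from 531, 555, 613 and 659 CPM to 145, 155, 208 and 215 CPM (log2 fold change -1.70 ± 0.28, adjusted p = 6.27e-05). The miR-29 family restrains collagens and other matrix genes in fibroblasts. MiR-29a-3p fell from 4582, 4641, 4772 and 5279 CPM to 1120.0, 1392, 1472 and 1604 CPM (log2 fold change -1.79 ± 0.15, adjusted p = 6.78e-08), and the groups were clearly separated. MiR-29c-3p fell from 291, 349.7, 359 and 371 CPM to 69.0, 81.1, 88.3 and 89.0 CPM (log2 fold change -2.07 ± 0.20, adjusted p = 3.62e-07). MiR-29b-3p fell from 86.2, 91.0, 99.8 and 105 CPM to 24.6, 26.9, 33.4 and 37.3 CPM (log2 fold change -1.65 ± 0.21, adjusted p = 8.75e-06). Of the 6 tested miR-29 loci 5 were lower, beside 16.8% of all loci tested, with a list median of -1.72. The exception was miR-29c-5p at a mean of 3.87 CPM in sham.

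MiR-30a-5p, an abundant miRNA of epithelia and many other cells, fell from 17309, 20968, 21271 and 23285 CPM to 7517, 8282, 8544 and 9841 CPM (log2 fold change -1.28 ± 0.12, adjusted p = 3.62e-07). Of the 13 miR-30 loci tested 5 were lower and 1 higher, beside 16.8% and 26.3% of all loci tested. The most abundant, miR-30d-5p, did not pass (log2 fold change -0.28). MiR-26a-5p, an inhibitor of Ezh2 like miR-101, fell from 51540.5, 54864, 57296 and 62618 CPM to 27085, 30632, 34509 and 34566 CPM (log2 fold change -0.84 ± 0.12, adjusted p = 2.69e-05), and miR-26b-5p fell beside it (log2 fold change -0.73, adjusted p = 0.000407). MiR-15a-5p, which targets Bcl2 and cyclins, fell from 2216, 2495, 2702 and 2703 CPM to 914, 961, 1045 and 1084 CPM (log2 fold change -1.34 ± 0.19, adjusted p = 2.18e-05). Its cluster partner miR-16-5p, with the same seed, did not pass (log2 fold change -0.12). MiR-142a-5p fell from 52163, 54586, 59046 and 60917 CPM to 28586, 29572, 29775 and 31135 CPM (log2 fold change -0.93 ± 0.13, adjusted p = 2.18e-05), and miR-223-3p had a log2 fold change of -0.58 ± 0.16, adjusted p = 0.00484, just short of the fold threshold.

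A group of co-transcribed miRNAs fell together. MiR-99b-5p, let-7e-5p and miR-125a-5p come from 1 transcript, Spaca6 in the annotation. MiR-125a-5p, which restrains inflammatory signalling in macrophages, went from 10905, 11206, 11327 and 11826 CPM to 3979.8, 4287, 5487 and 6637 CPM (log2 fold change -1.15 ± 0.18, adjusted p = 3.79e-05). Let-7e-5p went from 3255, 3543, 4146 and 4784 CPM to 1463, 1601, 1628 and 1689 CPM (log2 fold change -1.30 ± 0.20, adjusted p = 4.6e-05), and miR-99b-5p from 4440.0, 5362, 5447 and 6006 CPM to 2323, 2469, 2478 and 2959 CPM (log2 fold change -1.06 ± 0.14, adjusted p = 1.24e-05). Within the wider family of miR-99, miR-100 and miR-125, 9 of 11 tested loci were lower, 1 was higher and the median log2 fold change was -0.99. Over all loci tested 16.8% were lower and 26.3% higher. MiR-32-5p fell from 64.6, 68.2, 69.8 and 78.8 CPM to 11.5, 15.5, 18.7 and 23.2 CPM (log2 fold change -2.02 ± 0.25, adjusted p = 6.64e-06). MiR-362-3p, from the Clcn5 intron cluster, fell from 106, 107, 129 and 131 CPM to 14.7, 24.1, 30.4 and 33.9 CPM (log2 fold change -2.20 ± 0.34, adjusted p = 3.79e-05), and miR-500-3p and miR-532-5p of that cluster fell too (log2 fold change -1.15 and -0.61), so that 3 of its 9 tested loci were lower and none higher. Lower still in abundance, miR-3964 fell from a mean of 36.0 to 6.52 CPM and miR-582-3p from 42.1 to 15.7 CPM.

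MiRNAs with the same seed did not always move together. Of 37 seeds shared by at least 2 tested names, 4 held names called in both directions, 4 held only names called higher and 6 only names called lower. Of all 415 names tested, 117 were called higher and 67 lower, and the seed counts were not tested against these shares. The clearest split was miR-146. MiR-146a-5p fell from 69538, 77691, 80975 and 83448 CPM to 26744, 33229, 35004 and 41539 CPM (log2 fold change -1.19 ± 0.18, adjusted p = 4.46e-05), and miR-146b-5p, with the same seed as printed above, rose as given above. In sham Macs the mean of miR-146a-5p was 77913 CPM and that of miR-146b-5p 3131 CPM, and in UUO-7 Macs they were 34129 and 10561 CPM. MiR-27a-3p fell from 2754, 3307, 3489.7 and 3506 CPM to 1345, 1401, 1516 and 1723 CPM (log2 fold change -1.13 ± 0.20, adjusted p = 0.000143), while miR-27b-3p rose from 8656, 12672, 13051 and 13513 CPM to 17466, 18951, 19898 and 23216 CPM (log2 fold change 0.73 ± 0.16, adjusted p = 0.000782). The flanking miR-23b-3p rose (log2 fold change 1.17, adjusted p = 9.39e-06), and miR-23a-3p of the miR-27a cluster did not pass (log2 fold change -0.18). In the family of miR-25, miR-32, miR-92 and miR-363, miR-32-5p fell, miR-92b-3p, named after its values were seen, rose from a mean of 41.5 to 159 CPM, miR-363-3p rose from under 1 CPM, and the abundant miR-25-3p and miR-92a-3p did not pass, with miR-92a-3p as the most abundant (log2 fold change -0.16, adjusted p = 0.279). Let-7e-5p fell, and let-7i-5p, let-7b-5p and miR-98-5p of the same seed rose (log2 fold changes 0.59, 0.90 and 0.66). The most abundant let-7 locus, let-7f-5p, had a log2 fold change of -0.42, under the fold threshold. MiR-181b-5p and miR-181d-5p rose (log2 fold change 1.20 ± 0.11, adjusted p = 2.78e-07, and 1.37), whereas miR-181a-5p, at 53389 and 52986 CPM, had a log2 fold change of -0.01 ± 0.12, adjusted p = 0.954. Mature miRNAs made from several loci share their reads between these loci in the table, so the loci of miR-125b-5p, miR-181a-5p, miR-181b-5p, let-7f-5p, miR-26a-5p and miR-29b-3p are not separate measurements. Neither are miR-199a-3p and miR-199b-3p, whose mature sequences are identical, nor loci that overlap on opposite strands.

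The 2 arms of a hairpin often moved apart. The 5p to 3p ratio was tested for 138 hairpins with both arms measured (limma on log2 ratios, false discovery rate under 0.05, no fold threshold). It changed in 52 (37.7%), 27 towards the 5p arm and 25 towards the 3p arm. These include 8 pairs of hairpins that overlap on opposite strands and share reads, with ratio changes of opposite sign, 3 of them with both hairpins called, and of the 122 other hairpins 45 changed, 24 towards the 5p arm and 21 towards the 3p arm. The 122 still hold hairpins with an arm whose mature sequence is also made from another locus, so their ratios mix hairpins. For let-7f the called ratio changes were -1.04 at the chr13 locus and 0.87 at the chrX locus, with the same 5p sequence. By the calls of the single arms, both were higher in 19 hairpins, both lower in 9 and opposite in 4, and 1 arm alone was called in 52. The hairpin miR-125b-1 had the largest shift. Its 5p arm fell from 1205, 1254, 1265 and 1308 CPM to 545, 583, 738 and 740.3 CPM (log2 fold change -0.95 ± 0.14, adjusted p = 2.24e-05). Its 3p arm rose from 2.92, 3.63, 3.75 and 5.75 CPM to 34.5, 38.4, 45.2 and 47.5 CPM (log2 fold change 3.31 ± 0.23, adjusted p = 1.18e-08), and the log2 ratio changed by -4.17 ± 0.21, adjusted p = 1.05e-10. The 5p sequence is also made from the miR-125b-2 hairpin, whose own 3p arm fell (log2 fold change -1.05, adjusted p = 0.000211). For miR-30b the 5p arm fell and the 3p arm rose (log2 fold change -0.90 and 0.94), and the log2 ratio changed by -1.83 ± 0.21, adjusted p = 1.36e-05. For miR-27a the 3p arm fell and the 5p arm rose from a mean of 19.0 to 48.1 CPM, with a ratio change of 2.47 ± 0.37, adjusted p = 0.000129. For miR-181a-2 the 3p arm fell from 895, 922, 946 and 952 CPM to 248, 325, 386 and 407 CPM while the 5p arm did not pass, and the ratio changed by 1.45 ± 0.18, adjusted p = 1.68e-05. Its 5p sequence is also made from the miR-181a-1 hairpin. The scarcer 5p arm of miR-223 rose from 148, 152, 175 and 176 CPM to 361, 368, 441 and 508 CPM while the 3p arm did not pass, with a ratio change of 1.94 ± 0.26, adjusted p = 4.22e-05.

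**Figure D3:**
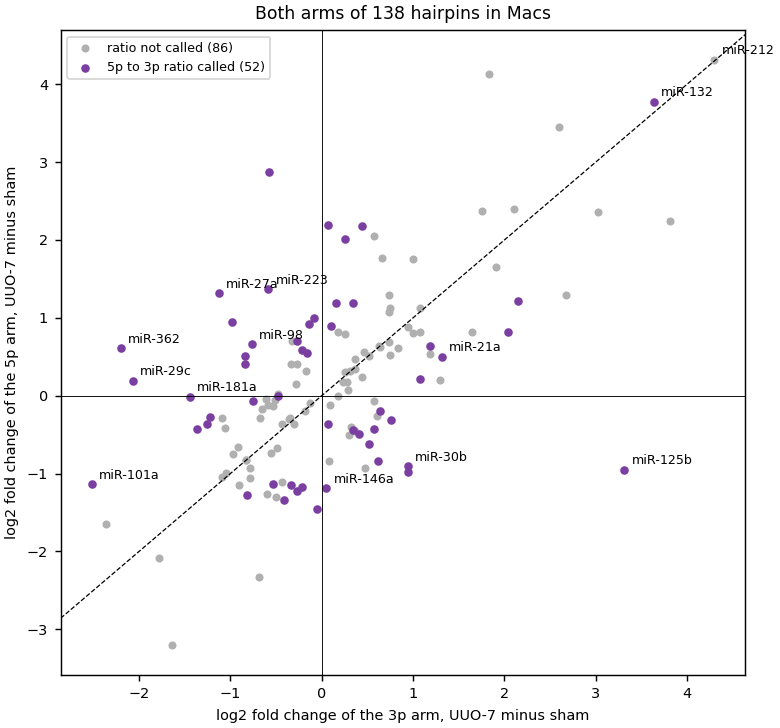
Log2 fold change of the 5p arm (vertical) against that of the 3p arm (horizontal) between UUO-7 and sham Macs, for the 138 hairpins with both arms tested. Hairpins on the diagonal moved alike, and the 52 with a called change of the 5p to 3p ratio, miR-125b-1 farthest, are coloured.

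The UUO-2 libraries give the levels after 2 days of obstruction, and the R-UUO libraries those after reversal. UUO-7 and sham, and UUO-7 and UUO-2, share the UUO-7 libraries, so the values are set side by side. Against UUO-2, 74 of the 457 loci were higher in UUO-7 (16.2%) and 66 were lower (14.4%). Of the 120 loci higher than sham, 51 were also higher than UUO-2, 3 were lower and 66 did not pass, and of the 77 lower than sham, 38 were also lower than UUO-2 and 39 did not pass. MiR-132-3p averaged 7.28 ± 4.85 CPM in sham, 63.5 ± 7.56 in UUO-2, 95.2 ± 21.9 in UUO-7 and 108 ± 17.9 in R-UUO, and UUO-7 and UUO-2 did not differ past the threshold (log2 difference 0.59 ± 0.30, adjusted p = 0.135). MiR-148a-3p averaged 206 ± 68.2, 1621 ± 365, 1247 ± 281 and 1622 ± 274 CPM in the same order, again without a called difference between UUO-7 and UUO-2 (log2 difference -0.38 ± 0.22, adjusted p = 0.191). MiR-147-3p was highest after 2 days, at 119.8 ± 20.3 CPM against 21.9 ± 0.803 after 7 days and 46.2 ± 16.9 in R-UUO (log2 difference of UUO-7 from UUO-2 -2.45 ± 0.26, adjusted p = 2.15e-06), and miR-222-3p was also lower in UUO-7 than in UUO-2 (log2 difference -0.89 ± 0.15, adjusted p = 0.000216).

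Other miRNAs were higher at day 7 than at day 2. MiR-146b-5p averaged 3131 ± 533 CPM in sham, 3884 ± 402 in UUO-2, 10561 ± 987 in UUO-7 and 9556 ± 1485 in R-UUO, and UUO-7 exceeded UUO-2 by 1.44 ± 0.14, adjusted p = 1.91e-06 on the log2 scale. MiR-125b-1-3p and miR-1247-5p were also higher in UUO-7 than in UUO-2 (log2 differences 2.48 ± 0.22, adjusted p = 3.85e-07, and 2.96 ± 0.43, adjusted p = 5.73e-05). Among the loci that fell, miR-146a-5p averaged 35979.5 ± 5717 CPM in UUO-2 and did not differ past the threshold between UUO-7 and UUO-2 (log2 difference -0.08 ± 0.18, adjusted p = 0.782). No difference from UUO-2 was called for miR-125a-5p, let-7e-5p, miR-99b-5p and miR-26a-5p, with log2 differences of -0.10, -0.10, -0.18 and 0.16. MiR-29a-3p was at 3639 ± 202 CPM in UUO-2 and 2808 ± 564 in R-UUO and was lower in UUO-7 than in UUO-2 (log2 difference -1.38 ± 0.14, adjusted p = 2.15e-06), and miR-101a-3p, at 2868 ± 222 CPM in UUO-2 and 2079 ± 771 in R-UUO, was too (log2 difference -1.64 ± 0.22, adjusted p = 2.63e-05). No test of R-UUO was run.

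The same obstruction was compared in the other sorted cells, with 1 model in which the change in Macs was set against the mean change in ECs, PT cells and PDGFR-β+ cells. Calls here needed a false discovery rate under 0.05 and no fold threshold, unlike the calls against sham and UUO-2. The change in Macs was higher for 63 of 457 loci (13.8%) and lower for 78 (17.1%). Of the 120 loci that rose in Macs, 49 had a change above the mean of the other cells, 4 had one below it and 67 showed no called difference. Of the 77 that fell, 47 had a change below that mean and 30 showed no called difference. A change above or below the mean need not be above or below that of each cell type. MiR-142a-5p fell in Macs by 0.93 on the log2 scale and changed by 2.22 in ECs, 1.07 in PT cells and 2.23 in the PDGFR-β+ sort (difference -2.77 ± 0.32, adjusted p = 1.38e-09). MiR-223-3p differed in the same direction (difference -2.33 ± 0.58, adjusted p = 0.00119), with changes of 2.12 in ECs, 0.82 in PT cells and 2.30 in the PDGFR-β+ sort. The part of leukocytes within those 3 sorts in the changes of miR-142a-5p and miR-223-3p was not tested. MiR-146a-5p changed by 1.35 in PDGFR-β+ cells, 0.64 in ECs and 0.29 in PT cells, against -1.19 in Macs (difference -1.95 ± 0.24, adjusted p = 2.95e-09). MiR-21a-5p had a change of 0.50 in Macs, against 4.97 in PDGFR-β+ cells, 2.41 in ECs and 1.75 in PT cells (difference -2.54 ± 0.31, adjusted p = 3.02e-09). MiR-132-3p rose more in Macs, with a change of 3.65, against 1.93 in PDGFR-β+ cells, 0.67 in ECs and 2.17 in PT cells (difference 2.06 ± 0.31, adjusted p = 5.24e-07), and miR-148a-3p and miR-150-5p did as well (differences 1.49 and 1.89). MiR-29c-3p fell in Macs by 2.07 and had no called difference from the other cells (difference -0.36 ± 0.22, adjusted p = 0.219), while miR-29a-3p (difference -1.47 ± 0.19, adjusted p = 1.53e-08) and miR-101a-3p (difference -1.58 ± 0.23, adjusted p = 3.09e-07) differed. MiR-362-3p fell in Macs and had changes of 0.76 in PDGFR-β+ cells, 0.11 in ECs and 0.93 in PT cells (difference -2.80 ± 0.49, adjusted p = 9.4e-06). The 4 loci that rose in Macs but less than the mean of the other cells were miR-155-5p, miR-21a-3p, miR-146b-5p and let-7i-5p. The first 2 were named after their values were seen. MiR-146b-5p rose by 1.75 in Macs, against 5.16 in PDGFR-β+ cells but 1.37 in ECs and 1.13 in PT cells. Let-7i-5p rose by 0.59 in Macs, against 1.99 in PT cells, 0.77 in PDGFR-β+ cells and 0.48 in ECs.

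**Figure D4:**
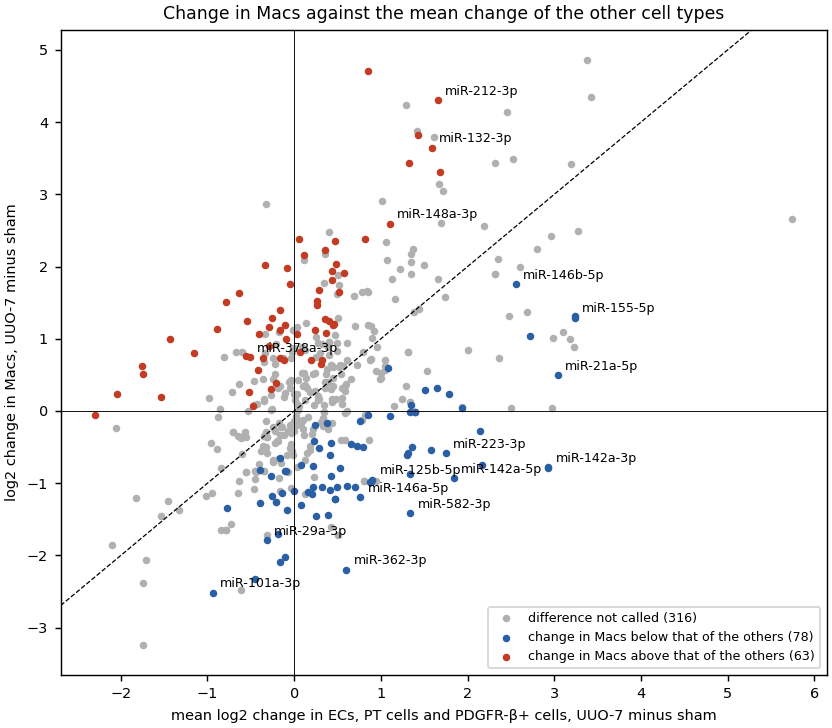
Log2 change between UUO-7 and sham in Macs (vertical) against the mean change in ECs, PT cells and PDGFR-β+ cells (horizontal) for the 457 loci tested. Loci called different are coloured, with the change in Macs above the mean of the other cells for 63 and below it for 78. Below it lie miR-142a-5p and miR-146a-5p, which fell in Macs, and miR-21a-5p, which rose by 0.50 in Macs.

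Markers of other cell types moved with obstruction in these sorted Macs. Of the 9 tested fibroblast and mural loci 6 were higher and none lower, with a median of 1.82. Over all loci tested 26.3% were higher and 16.8% lower. MiR-214-3p, made from the Dnm3os transcript of mesenchymal cells, rose from 2.33, 3.65, 4.57 and 5.15 CPM to 46.6, 48.4, 61.4 and 64.4 CPM (log2 fold change 3.82 ± 0.27, adjusted p = 1.18e-08), and miR-199a-3p from the same transcript rose from a mean of 153 ± 28.6 to 577 ± 81.6 CPM. MiR-143-3p, the most abundant of the list, did not pass (log2 fold change 0.07 ± 0.23, adjusted p = 0.813). The summed level of this list ran from 3161 to 7858 CPM in sham and from 5681 to 8805 CPM in UUO-7 libraries. Of 14 tubule loci 7 were lower and 2 higher, with sums of 6768 to 9125 CPM in sham and 3643 to 5010.4 CPM in UUO-7. MiR-192-5p fell from 5364, 5508, 5705 and 7483 CPM to 2237, 2421, 2590.3 and 3364 CPM (log2 fold change -1.18 ± 0.22, adjusted p = 0.0002), and miR-203-3p fell as well (log2 fold change -1.64). MiR-375-3p and miR-200c-3p, named after their values were seen, were the 2 that rose (log2 fold change 2.56 and 1.41). Endothelial miR-126a-5p and miR-126a-3p did not pass (log2 fold change -0.83 ± 0.46, adjusted p = 0.142), with sums of 504 to 4974 CPM in sham and 1062 to 1747 CPM in UUO-7. Erythroid miR-486a-5p rose by 1.54-fold, a call lost under 16 of 20 other settings, and miR-451a did not pass, with sums of 861 to 1608 and 1715 to 2096 CPM. The lymphocyte list summed to 2755 to 3601 and 3847 to 5141 CPM, and the myeloid list to 57000.3 to 65594 and 31993 to 34518 CPM. The part of other cells in the changes of miR-30a-5p, miR-192-5p, miR-199a-3p, miR-214-3p, miR-150-5p, miR-182-5p, miR-183-5p and the Dlk1-Dio3 miRNAs was not tested.

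The imprinted Dlk1-Dio3 cluster, active in embryonic and mesenchymal cells, had 8 of its 116 loci tested, of which 3 were higher. MiR-127-3p stood at 2.81, 7.67, 16.2 and 94.1 CPM in sham and 43.3, 48.7, 97.8 and 899.8 CPM in UUO-7 Macs (log2 fold change 3.15 ± 1.01, adjusted p = 0.015). The groups overlapped, and 1 UUO-7 library, replicate 3, held most of the signal. MiR-541-5p behaved alike (0, 1.69, 2.81 and 23.1 CPM and 12.8, 14.8, 33.8 and 245 CPM), and without that library miR-127-3p (log2 fold change 0.89, adjusted p = 0.372), miR-541-5p and miR-434-5p were no longer called. The calls of miR-127-3p and miR-541-5p were also lost without sham replicate 1, and that of miR-127-3p without sham replicate 3. The remaining lists are given by their counts. Over all 457 loci tested 26.3% were higher and 16.8% lower, and no result is drawn from counts near these shares. The miR-17 to miR-92a clusters had 2 loci higher and 3 lower of 20 (median 0.06), with miR-19b-3p falling (log2 fold change -1.05, adjusted p = 0.00167) and miR-92a-3p not called. The miR-15 and miR-16 family had 2 lower of 13, miR-15a-5p and miR-322-5p. Let-7 had 4 higher and 4 lower of 24, miR-181 had 3 higher and 1 lower of 10, and the miR-23, miR-27 and miR-24 clusters 4 and 2 of 10. MiR-26 with miR-103 and miR-107 had 3 lower of 8, the Hox cluster 2 higher of 7, the miR-378 family 2 higher of 3 and the miR-148 and miR-152 family 2 higher of 6. Neither p53 miRNA passed, with miR-34a-5p at a log2 fold change of -0.25 (adjusted p = 0.141). MiR-22-3p, among the most abundant loci, did not pass either (log2 fold change -0.19).

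**Figure D5:**
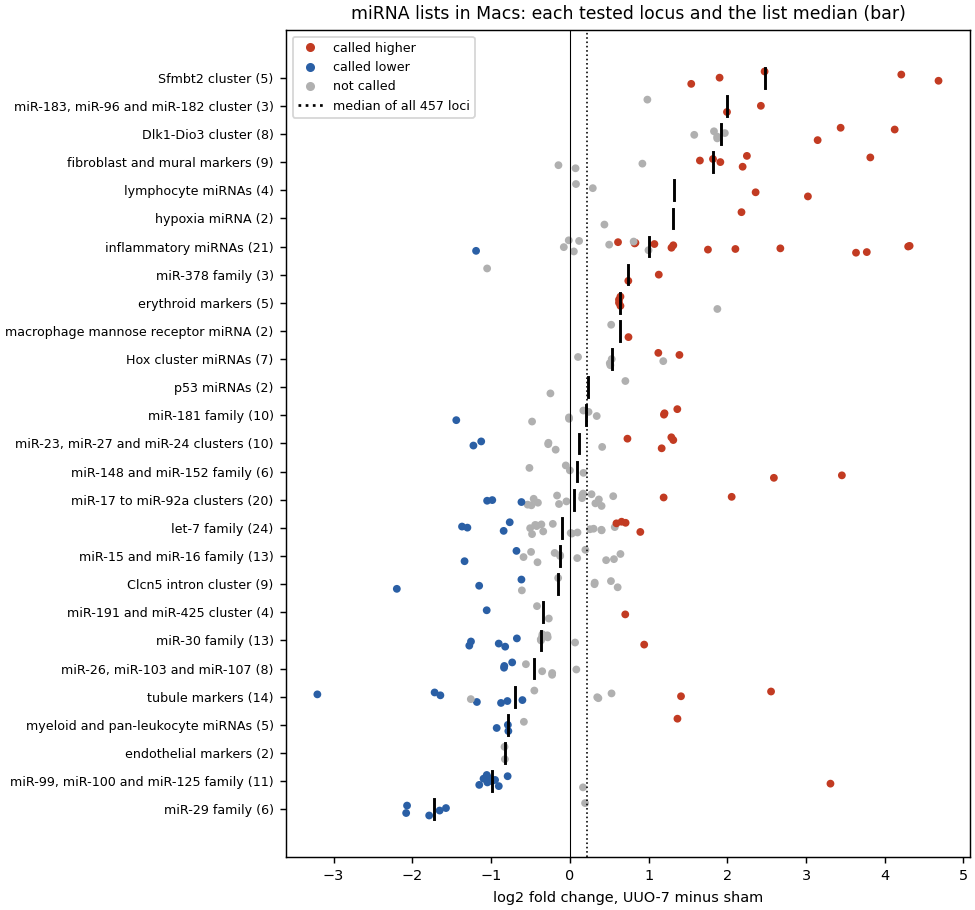
Log2 fold change between UUO-7 and sham Macs of every tested locus of each list, with 1 point per locus, a bar at the list median, a dotted line at the median of all 457 loci and colours for the calls. The miR-29 family and the miR-99, miR-100 and miR-125 family lie mostly below 0, and the inflammatory and the fibroblast and mural lists mostly above it.

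The changes were related to base composition. A mature sequence was at hand for 400 of the 457 loci (87.5%). Over these the GC content and the log2 fold change in Macs had a Spearman correlation of 0.29 (n = 400 loci, which share libraries and are not independent), against -0.06 in ECs, 0.09 in the PDGFR-β+ sort and -0.11 in PT cells. The median log2 fold change was 0.71 over the 101 loci with at least 55% GC and -0.42 over the 34 with under 35% GC. Only 94 of the 120 loci that rose have a sequence, so the GC content of the called loci is not compared. Removing the GC trend within each library, an alternative added after the data were seen, gave 88 higher and 77 lower of 400 loci, with 145 of the 166 calls among them kept. MiR-132-3p, miR-146a-5p, miR-146b-5p, miR-101a-3p and miR-29a-3p kept their calls, and of the named miRNAs miR-26b-5p, miR-142a-3p, miR-19a-3p and miR-191-5p lost theirs. The part of base composition in the changes was not tested further.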

How the data were processed

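Small RNA was sequenced from sorted mouse kidney cells. The authors trimmed the reads (Trim Galore 0.4.1, cutadapt 1.1), aligned them to GRCm38 with Bowtie and deposited raw counts per miRBase miRNA locus. How reads of several loci were placed and whether strand was used is not given in the sources used here. Loci kept by filterByExpr were tested on the 16 Mac libraries with edgeR 4.0.16 (TMM scaling, quasi-likelihood test, Benjamini-Hochberg adjustment, false discovery rate under 0.05, fold change above 1.5). The difference from the other cell types was a contrast in 1 fit of 63 libraries with TMM within each cell type. By the sample titles the cell types share condition and replicate numbers, so they may come from the same mice. That fit held no term for the mouse. Arm ratios (both arms, prior count 2) were tested with limma 3.58.1. The contrast between cell types and the arm ratios were called at a false discovery rate under 0.05 with no fold threshold. The steps were tested on simulated data. Sham and UUO-7 libraries came from different mice with overlapping replicate numbers, whose deviations did not correlate (3 pairs, r -0.26 to 0.04). The miRNAs named were, by rule, the largest non-overlapping changes at 10 CPM or more, the 10 most abundant loci, up to 3 called members of each list, and the largest differences in each further comparison. The members and lists were chosen with earlier results of these data known. Alternatives were other scalings, filters, tests and leaving out each library. GC trend removal and TMM set against a sham library were added after the data were seen. Totals ran from 1798374 to 6095639 counts in the 8 libraries. Counting error is small beside the spread between mice.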

Additional observations from a re-analysis of the deposited data

Results flagged for a closer look

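The change with 7 days of obstruction in Macs differed from the mean change in ECs, PT cells and PDGFR-β+ cells for 55 of the named miRNAs, by the contrast of the 2 changes in the edgeR fit of 63 libraries. Each value below is that difference on the log2 scale, Macs minus the mean of the other cells. A higher or lower value does not place Macs above or below each cell type. In PDGFR-β+ cells miR-125b-1-3p changed by 3.83, against 3.31 in Macs, and miR-199a-3p by 2.09, against 1.91. MiR-199b-3p changed by 2.07 in PDGFR-β+ cells, against 1.82 in Macs, and miR-181b-5p by 1.59, against 1.20. Among miRNAs of leukocytes and inflammation the change in Macs was lower for miR-142a-3p (-3.71), miR-142a-5p (-2.77), miR-223-3p (-2.33), miR-146a-5p (-1.95), miR-146b-5p (-0.80) and miR-21a-5p (-2.54) and higher for miR-132-3p (2.06), miR-212-3p (2.65), miR-150-5p (1.89) and miR-148a-3p (1.49). The part of leukocytes within the EC, PT and PDGFR-β+ sorts in these differences was not tested. The miR-99, miR-125 and let-7 miRNAs had lower changes for miR-99a-5p (-1.65), miR-99b-5p (-1.38), miR-125a-5p (-1.36), miR-125b-5p (-1.85), let-7e-5p (-1.38) and let-7i-5p (-0.49) and higher ones for miR-125b-1-3p (1.63) and let-7b-5p (1.18). In the miR-29, miR-101, miR-26 and miR-30 families the change in Macs was lower for miR-29a-3p (-1.47), miR-29a-5p (-1.93), miR-101a-3p (-1.58), miR-101b-3p (-1.52), miR-26a-5p (-0.74), miR-30a-5p (-0.88), miR-30a-3p (-0.43) and miR-30b-5p (-0.64). Lower changes were also found for miR-15a-5p (-0.56), miR-19a-3p (-1.91), miR-19b-3p (-1.75), miR-92a-3p (-0.54), miR-32-5p (-1.92), miR-22-3p (-0.42), miR-27a-3p (-1.29), miR-24-2-5p (-1.69), miR-181a-2-3p (-1.83), miR-362-3p (-2.80), miR-532-5p (-1.03), miR-425-3p (-1.28), miR-582-3p (-2.75) and miR-141-3p (-2.21). Higher changes were found for miR-23b-3p (1.46), miR-27b-3p (0.90), miR-181b-5p (0.75), miR-191-5p (0.38), miR-196a-5p (1.56), miR-196b-5p (0.89), miR-378a-3p (1.26) and miR-378a-5p (2.03), for the mesenchymal miR-199a-3p (1.34), miR-199b-3p (1.39) and miR-214-3p (2.39), and for miR-1247-5p (2.10), miR-6238 (2.29) and miR-6240 (2.28). For miR-467c-5p (3.85) the value rests on sham Macs at or under the limit of detection, depends on the prior count and is not read as a size.

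A single library stood apart from the other 3 of its group in 11 of 182 groups of 4 values checked. Chance flags about 1 group in 20. Of these 4 were in the Dlk1-Dio3 cluster, miR-127-3p in sham replicate 4 (94.1 CPM against 2.81 to 16.2), miR-127-3p in UUO-7 replicate 3 (899.8 CPM against 43.3 to 97.8), miR-541-5p in sham replicate 4 (23.1 CPM against 0 to 2.81) and miR-541-5p in UUO-7 replicate 3 (245 CPM against 12.8 to 33.8). The others were miR-30b-3p in sham replicate 1 (23.9 CPM against 16.8 to 17.3), miR-192-5p in sham replicate 4 (7483 CPM against 5364 to 5705), miR-467d-5p in sham replicate 4 (7.00 CPM against 2.56 to 2.81), miR-298-5p in UUO-7 replicate 4 (22.6 CPM against 35.6 to 37.5), miR-101a-3p in UUO-7 replicate 3 (680.1 CPM against 983 to 1021), miR-150-3p in sham replicate 1 (1.86 CPM against 0 to 0) and miR-191-5p in sham replicate 2 (42584 CPM against 35029 to 35719).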

How the results depend on the processing

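No called change between UUO-7 and sham among the 91 named miRNAs changed direction under any of 21 alternatives that gave it a value, while miR-181a-5p, near 0 and not called, ranged from -0.27 to 0.11. Of the 82 that were called, 56 kept their call under all of these. The number of loci higher and lower was 120 and 77, and by setting it was 118 and 85 with DESeq2, 129 and 80 with the likelihood ratio test, 111 and 84 with RLE scaling, 138 and 65 with library size alone, 103 and 93 with TMM factors over all 63 libraries, 107 and 94 with TMM referenced to a sham library, 127 and 81 with no filter, 96 and 88 with the 8 libraries only, 101 and 94 with loci of 1 name summed, 94 and 60 with the libraries thinned to 1 depth and 88 and 77 with the GC trend removed. Testing against a fold of 1.5 (glmTreat) gave 89 higher and 48 lower loci, because its null is the fold itself.

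Leaving out 1 library gave 96 to 116 higher and 85 to 105 lower loci against sham, 59 to 76 and 50 to 66 against UUO-2, 41 to 52 and 81 to 101 against the other cell types, and 23 to 29 and 16 to 26 hairpins by arm ratio. The lowest counts came without sham replicate 3 (41 loci above the mean of the other cells, against 63) and without UUO-7 replicate 5 (16 hairpins towards the 3p arm, against 25), and the cause was not tested. The comparison with the other cell types was also fitted with TMM factors over all 63 libraries, with library size alone and with the mouse as a block. These gave 50 to 66 loci higher and 66 to 97 lower, against 63 and 78. Median log2 fold changes moved by -0.22 to 0.13 between settings, and calls near the fold threshold were lost under most of them for let-7i-5p, miR-486a-5p and miR-191-5p. MiR-223-3p passed in 15 of the 21.

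Replicate numbers are shared by different mice of different conditions. A fit with the replicate block gave 112 higher and 74 lower loci against sham, 56 and 46 against UUO-2, and 16 hairpins towards the 3p arm. It took away the calls of 7 named miRNAs. These were miR-127-3p, miR-541-5p, miR-142a-3p, miR-19a-3p, miR-532-5p, miR-486a-5p and miR-486a-3p. The replicate numbers are not taken to pair the mice. Depth limits the loci near 1 CPM, such as miR-467c-5p and miR-669a-5p.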

Other observations

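For some seeds every tested name moved the same way, beside 117 higher and 67 lower of all 415 names tested. The 4 with every name higher were those of miR-132-3p with miR-212-3p, miR-221-3p with miR-222-3p, the miR-196 names and the miR-199 3p names, the last with identical mature sequences and so no separate measurements. The 6 with every name lower were those of the miR-29 3p names, miR-26a-5p with miR-26b-5p, the miR-19 names, the miR-99 3p names, miR-141-3p with miR-200a-3p, and miR-192-5p with miR-215-5p. The last of these is a low level miRNA, at a mean of 4.47 CPM in sham and 1.44 CPM in UUO-7 Macs (log2 fold change -1.72 ± 0.50, adjusted p = 0.00821). The names in this paragraph outside the list rule were chosen after their values were seen.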
